A study of Mus musculus with 6 samples.

Results

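The genes described are the ATPase gene Vcp and 9 genes of proteins that bind the ATPase and direct it to its substrates, all chosen by symbol: Nsfl1c, Ufd1, Nploc4, Ubxn1, Ubxn4, Ubxn6, Faf1, Faf2 and Aspscr1. Each of the 10 symbols matched 1 Ensembl gene among the 41025 in the tables, and all 10 averaged 1 FPKM or more, the condition that 11383 genes met for testing. FPKM is the number of sequenced fragments of a gene scaled by gene length and by the size of the library. The libraries came from the tibialis anterior muscle of C57BL/6 mice that were 8 weeks old. There were 3 libraries labelled wild type (WT) and 3 labelled Mettl21e KO (knockout), and both sets share strain, tissue and age. The sources used here give neither the kind of knockout allele nor any pooling of animals. The 3 replicates of each label are described as biological, without a statement on separate mice. Each p-value therefore weighs the difference between the labels against the spread of libraries, not of a known number of mice. In the main limma fit the spread of a gene is also drawn towards that of genes of similar level.

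VCP is an abundant ATPase of the AAA family. As a ring of identical subunits it pulls ubiquitin-tagged proteins out of membranes, complexes and chromatin and unfolds them, often ahead of the proteasome. Cofactors choose the substrate and the site. Most carry a UBX domain, a ubiquitin-like fold that docks on the amino-terminal part of VCP, but Ufd1 and Nploc4 are not UBX family proteins by name: Nploc4 docks through a UBX-like domain and Ufd1 through short linear motifs. In muscle, inherited changes in human VCP cause a myopathy with inclusion bodies. VCP also carries a methylated lysine set by VCPKMT, a relative of METTL21E, and the comparison of the labels asks which transcripts differ in muscle labelled as lacking Mettl21e.

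Libraries held between 8476591 and 10856669 fragments, and the fragments behind each value were recovered from the FPKM as whole numbers. The targeted gene did not separate the labels. Mettl21e was at 2.46, 0.309 and 1.23 FPKM in WT-labelled libraries 1, 2 and 3, and at 1.64, 1.45 and 1.88 FPKM in KO-labelled libraries 1, 2 and 3. It had 8 to 63 fragments in a library. These values cover the whole gene, so they do not test whether part of it is deleted, and each direction below is between libraries by label only. The 8 markers listed for fast fibre, among them Acta1 and Ckm, summed to 73050 to 79386 FPKM in the 6 libraries, and 7 of them averaged 1 FPKM or more. Such a sum is that of skeletal muscle, but it cannot tell the tibialis anterior from another muscle. The 6 slow-fibre markers summed to 80.9 to 188 FPKM in WT-labelled libraries and 42.9 to 75.3 FPKM in the KO-labelled ones, and all 6 had the lower mean under the KO label. Leukocyte markers summed to 31.1 to 201 and 29.0 to 50.7 FPKM and fibroblast markers to 215 to 447 and 222 to 306 FPKM, with all 8 and all 7 lower by mean. Of the 8 leukocyte markers, 5 averaged 1 FPKM or more. Adipocyte markers summed to 96.7 to 138 and 84.5 to 96.9 FPKM and endothelial markers to 96.8 to 159 and 114 to 136 FPKM. Tendon markers summed to 41.6 to 109 and 39.2 to 59.6 FPKM, with all 5 lower by mean in each of these lists. Also lower by mean were 4 of 5 red blood cell, 2 of 5 Schwann and 3 of 8 fast-fibre markers, against 56.7% of all tested genes. An unadjusted limma p under 0.05 was found for 4 of 6 slow-fibre and 1 of 7 fibroblast markers. It was also found for 1 of 5 tested leukocyte and 2 of 4 tested adipocyte markers, but for none in the other lists. The share over all tested genes was 4.59%. No marker was at 0 in every library. The part of these cells in the values below was not tested, and in a whole muscle fewer cells of a type and less RNA per cell cannot be told apart.

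Vcp was the most abundant of the 10 transcripts in every library and did not differ between the labels past the test. It was at 326, 321 and 309 FPKM in WT-labelled libraries 1, 2 and 3 (mean 319 ± 8.59, SD, n = 3). In KO-labelled libraries 1, 2 and 3 it was at 338, 292 and 297 FPKM (mean 309 ± 25.3, SD, n = 3). KO-labelled library 1 thus lay above all 3 wild-type values and the other two knockout values lay below them, so the groups overlapped. The log2 difference, which throughout is KO-labelled minus WT-labelled on the log2(FPKM + 1) scale, was -0.05 (limma SE 0.08, adjusted p = 0.988). Its 95% interval on that scale runs from 0.851-fold to 1.10-fold. Between 3056 and 4259 fragments stood behind a value, and Vcp ranked 239th by mean FPKM among the tested genes, above 97.9% of them. This rank holds for the gene lengths behind the deposited FPKM only. The gene (ENSMUSG00000028452) spans bases 42979963 to 43000507 of chromosome 4 (mm10, minus strand). Exons of 1700022I11Rik overlap it on the other strand. The strand setting of the counting is not stated, so fragments of the overlap are of uncertain origin.

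The start of Vcp and that of Faf2, the least abundant of the 10, are shown because they stand at the ends of the range of levels. Each line gives the 250 bases before the RefSeq start (build GRCm38.p6), in the direction of transcription. Capitals mark the CCAAT box (CCAAT, or ATTGG on the other strand) and the GC box (GGGCGG, or CCGCCC on the other strand).
Vcp, chr4:43000508-43000757, minus strand: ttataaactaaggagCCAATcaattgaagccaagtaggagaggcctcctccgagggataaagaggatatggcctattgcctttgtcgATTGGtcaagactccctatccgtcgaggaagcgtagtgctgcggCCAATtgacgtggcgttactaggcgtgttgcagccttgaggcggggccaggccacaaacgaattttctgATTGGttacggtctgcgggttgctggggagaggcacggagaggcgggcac
Faf2, chr13:54621534-54621783, plus strand: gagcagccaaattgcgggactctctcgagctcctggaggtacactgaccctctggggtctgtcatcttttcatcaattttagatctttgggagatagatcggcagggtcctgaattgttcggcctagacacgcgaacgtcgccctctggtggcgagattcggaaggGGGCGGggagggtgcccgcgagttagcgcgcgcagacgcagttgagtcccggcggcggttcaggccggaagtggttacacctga
The Vcp window holds 4 CCAAT matches and no GC box. At least 1 CCAAT match is found in 33.8% of the 32817 windows of the same 250 bases in the RefSeq table, and 4 or more in 0.835%. The first listed window of each of the 9 cofactors holds 0 CCAAT matches. The Faf2 window holds 1 GC box, as 32.7% of all windows hold at least 1. For Ubxn6 and Aspscr1 the table lists 3 starts each, and their other windows hold up to 2 and 1 CCAAT matches. These other windows hold up to 5 GC boxes for Ubxn6 and up to 8 for Aspscr1, and 1.93% and 0.155% of all windows hold as many or more. The antioxidant response element (TGACNNNGC, either strand), a site for stress-activated factors, had 1 match in the windows of Vcp and of Ubxn4 and none in those of the other 8 genes, against 10.2% of all windows with at least 1. These matches describe letters only, and no binding was measured.

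The levels of the 10 genes formed a ladder that was nearly the same in each library. By mean FPKM over 6 libraries the order was Vcp (314), Ubxn1 (98.99), Nsfl1c (91.2), Ufd1 (50.98), Ubxn4 (47.7), Nploc4 (41.5), Ubxn6 (39.9), Faf1 (30.8), Aspscr1 (17.3) and Faf2 (10.5). Vcp stood above Ubxn1, Nsfl1c above Ufd1, Ubxn6 above Faf1, Faf1 above Aspscr1 and Aspscr1 above Faf2 in 6 of 6 libraries with ranges that did not meet. Within the steps the order is less firm. Ubxn1 exceeded Nsfl1c and Ufd1 exceeded Ubxn4 in 5 of 6 libraries each, and Nploc4 exceeded Ubxn6 in 4 of 6, all with overlapping ranges. Ubxn4 exceeded Nploc4 in 6 of 6 libraries, also with overlapping ranges.

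**Figure D1:**
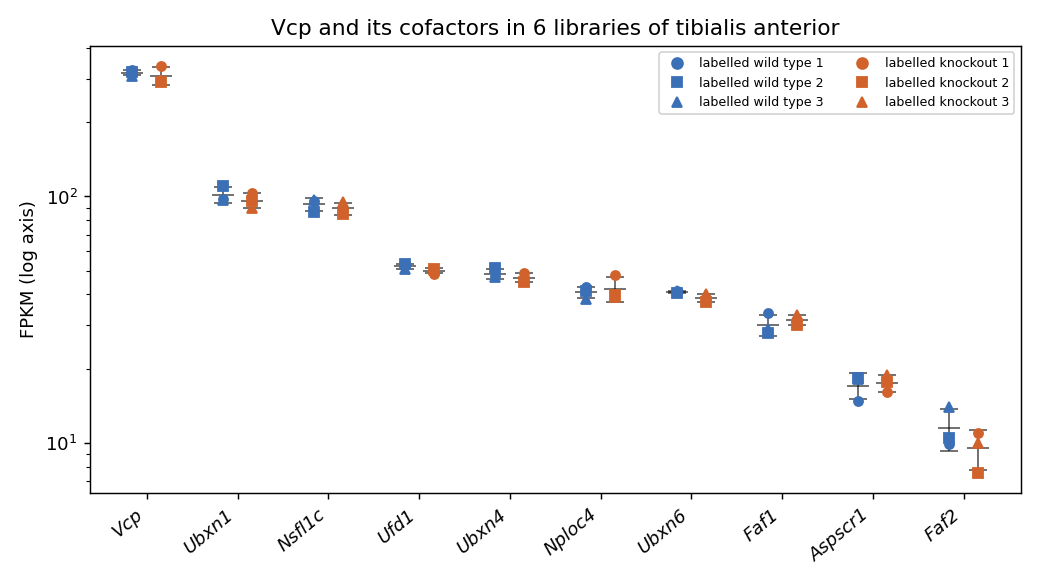
FPKM (log axis) of Vcp and its 9 cofactors in each library, blue for the wild-type label and orange for the knockout label, with symbols for replicates 1 to 3. Black marks give the mean and SD of 3 libraries, and the 2 labels overlap for each gene except Ubxn6.

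The step from Vcp to its cofactors depends on the gene length behind the FPKM. The length that turns the values into whole fragments is 1215 bases for Vcp, which is the mean length of its 5 annotated transcripts, 1 coding transcript of 3316 bases with 17 exons and 4 shorter ones down to 539 bases. Such a mean, within 1 base, was found for 7 of the 10 genes and for 65.7% of the 11483 genes with over 100 fragments in all and an annotation entry. For Ufd1, Ubxn1 and Faf2 the length found was 1016, 1037 and 1229 bases. A gene with many short annotated fragments therefore receives a higher FPKM for the same fragments. Scaled to the longest coding transcript instead, an alternative added after the data were seen, Vcp was at 107 to 124 FPKM, Ubxn1 at 72.2 to 88.7, Nsfl1c at 59.3 to 67.1 and Faf2 at 2.15 to 3.98. Vcp stayed above Ubxn1 in 6 of 6 libraries. Ubxn6 moved past Nploc4 and Ubxn4. Nploc4 also moved past Ubxn4, in 6 of 6 libraries and with ranges that did not meet, which reverses their order by deposited FPKM. The plain fold between the labels for 1 gene does not involve the length, while on the log2(FPKM + 1) scale the length sets the weight of the added 1. The log2 difference of Faf2, the lowest of the 10, was -0.25 with 1 added and -0.27 with 0.01 added.

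Relative to Vcp in the same library, the 9 cofactors ranged from 2.59% (Faf2 in KO-labelled library 2) to 34.4% (Ubxn1 in WT-labelled library 2) of its FPKM. Ubxn1, whose product binds ubiquitin chains through a UBA domain, was at 29.99%, 34.4% and 31.4% of Vcp in WT-labelled libraries 1, 2 and 3. In those labelled knockout it was at 30.5%, 32.8% and 30.3%. Nsfl1c encodes the adaptor of VCP in rebuilding Golgi and endoplasmic reticulum (ER) membranes after cell division, and stood at 29.4%, 26.9% and 31.1% and at 26.1%, 29.2% and 31.95% in the same order. For both genes the labels overlapped. In FPKM, Ubxn1 was at 97.8, 110.4 and 97.1 under the WT label and 103, 95.7 and 89.9 under the KO label (log2 difference -0.08, limma SE 0.09). Nsfl1c was at 95.97, 86.5 and 96.4 and at 88.3, 85.2 and 94.8 (log2 difference -0.05, SE 0.08). The highest Ubxn1 and the second-lowest Nsfl1c were both in WT-labelled library 2. Ubxn1 lies on the plus strand of chromosome 19 (8871496 to 8875863) and Nsfl1c on that of chromosome 2 (151494182 to 151511414), neither with an overlapping gene.

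Ufd1 and Nploc4 encode the 2 partners of the heterodimer that recruits ubiquitin-tagged substrates to VCP, among them proteins retrieved from the ER. Ufd1 was at 52.6, 52.9 and 50.5 FPKM in WT-labelled libraries 1, 2 and 3 and at 48.7, 50.8 and 50.3 FPKM in the KO-labelled ones. Nploc4 was at 42.8, 41.2 and 38.5 FPKM and at 47.8, 39.9 and 38.9 FPKM. KO-labelled library 1 had both the lowest Ufd1 and the highest Nploc4 of the 6. The other libraries ran from 50.3 to 52.9 FPKM for Ufd1 and from 38.5 to 42.8 FPKM for Nploc4. As a share of Vcp, Ufd1 was at 16.1%, 16.5% and 16.3% under the WT label and 14.4%, 17.4% and 16.9% under the KO label. Nploc4 was at 13.1%, 12.8% and 12.4% and at 14.2%, 13.6% and 13.1%. The ratio of Ufd1 to Nploc4 was 1.23, 1.29 and 1.31 in WT-labelled libraries 1, 2 and 3 (mean 1.28 ± 0.0428, SD, n = 3) and 1.02, 1.28 and 1.29 in the KO-labelled ones (mean 1.19 ± 0.154, SD, n = 3). The log2 ratio gave p = 0.6 in an exact permutation test (two-sided), whose smallest possible p with 3 libraries a label is 0.1. The log2 difference of this ratio was -0.10, and it was 0.0099 without KO-labelled library 1. Exons of Cdc45 overlap Ufd1 on the other strand, so the origin of part of its fragments is uncertain. Ufd1 lies on the plus strand of chromosome 16 from 18811779 to 18835261 and Nploc4 spans 120380370 to 120437708 of chromosome 11 (minus strand).

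**Figure D2:**
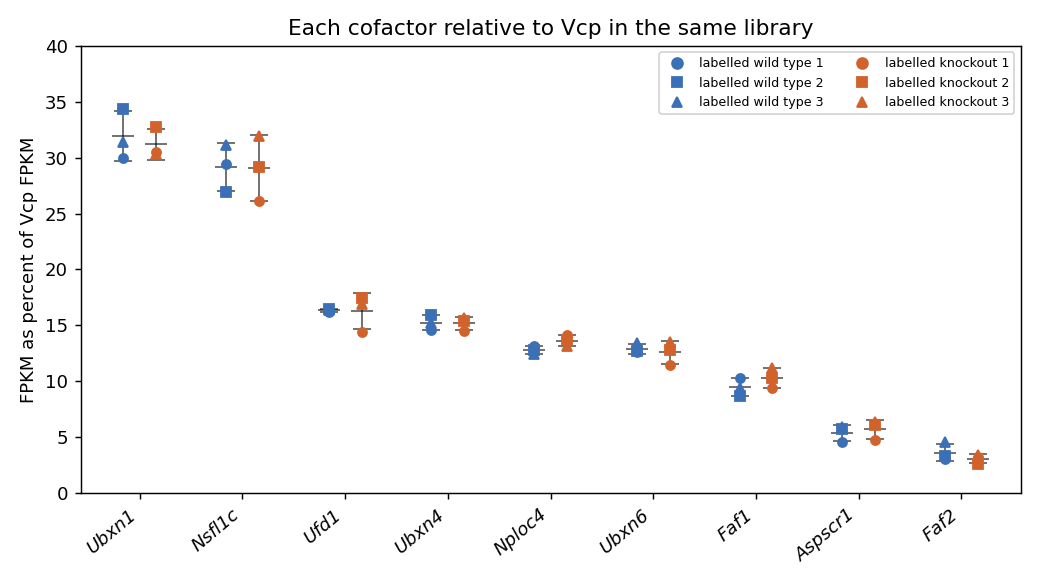
FPKM of each cofactor as a percentage of the FPKM of Vcp in the same library (linear axis from 0), with colours and symbols by label and replicate and black marks for the mean and SD of 3 libraries. Ubxn1 and Nsfl1c lie near 30%, the other 7 cofactors at or below 17.4%, and the labels overlap for all 9.

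By deposited FPKM Ubxn4 stood above Ubxn6 in each library, an order of the means that turned when each gene was scaled to its longest coding transcript. Ubxn4 encodes an ER membrane protein that brings VCP to proteins leaving the ER, and was at 47.6, 51.1 and 47.0 FPKM under the WT label and 49.0, 45.0 and 46.4 FPKM under the KO label. Its share of Vcp had the smallest spread of the 9: 14.6%, 15.9% and 15.2% in WT-labelled libraries 1, 2 and 3 and 14.5%, 15.4% and 15.6% in the KO-labelled ones. Ubxn6 works with VCP in the clearance of damaged lysosomes and in the sorting of caveolin. Its FPKM was 41.1, 40.7 and 41.4 under the WT label and 38.7, 37.4 and 40.05 under the KO label. It was the 1 member of 10 whose labels did not overlap, with all 3 KO-labelled libraries below all 3 WT-labelled ones. The groups did not overlap for 9.48% of all tested genes, and 5.64% did so with the KO-labelled libraries lower, so 1 of 10 is close to the background. The log2 difference of Ubxn6 was -0.08 (limma SE 0.08, adjusted p = 0.988), and as a share of Vcp its labels overlapped at 12.6%, 12.7% and 13.4% against 11.4%, 12.8% and 13.5%. The groups of the ratio to Vcp did not overlap for 7.47% of tested genes, and for 0 of the 9 cofactors. Exons of Chaf1a overlap Ubxn6 on the other strand, which leaves the same doubt as for Ufd1. The gene is on the minus strand of chromosome 17 (56067045 to 56075028) and Ubxn4 on the plus strand of chromosome 1 (128243964 to 128279378).

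The 2 FAS-associated factors stood apart in level. Faf1 encodes a soluble adaptor that helps VCP act on ubiquitin-tagged substrates, and was at 33.5, 27.8 and 28.9 FPKM under the WT label and 31.6, 30.1 and 33.1 FPKM under the KO label. Faf2 encodes a protein held in the ER membrane and on lipid droplets, where it recruits VCP. It was at 9.91, 10.5 and 13.99 FPKM in WT-labelled libraries 1, 2 and 3 and at 10.98, 7.56 and 9.98 FPKM in the KO-labelled ones. WT-labelled library 3 was the highest and KO-labelled library 2 the lowest, and the other 4 lay between 9.91 and 10.98 FPKM. Only 97 to 152 fragments stood behind a value of Faf2, and the fewest, 97, allows 78.7 to 118 by its exact 95% Poisson interval, for counting error only. Faf2 had the largest log2 difference of the 10 in size, at -0.25 (limma SE 0.17, adjusted p = 0.988), with an interval from 0.649-fold to 1.10-fold. That rank rests on single libraries: the difference was -0.106 without WT-labelled library 3 or without KO-labelled library 2, where Ubxn1 (-0.112) and Faf1 (0.106), respectively, were as large in size, and it was -0.348 without KO-labelled library 1. Its share of Vcp was 3.04%, 3.27% and 4.52% under the WT label and 3.25%, 2.59% and 3.36% under the KO label. The ratio of Faf1 to Faf2 was 3.38, 2.65 and 2.07 under the WT label and 2.88, 3.97 and 3.32 under the KO label (exact two-sided permutation test, p = 0.3). Faf1 lies on the plus strand of chromosome 4 from 109676588 to 109963960 and Faf2 on the plus strand of chromosome 13 from 54621784 to 54664063.

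Aspscr1 encodes TUG, which takes VCP rings apart in the test tube and, in muscle and fat cells, holds vesicles with the glucose transporter GLUT4 inside the cell until insulin acts. It was at 14.7, 18.3 and 18.1 FPKM in WT-labelled libraries 1, 2 and 3 and 16.1, 17.7 and 18.8 FPKM in the KO-labelled ones. As a share of Vcp these were 4.51%, 5.71% and 5.87% and 4.75%, 6.04% and 6.33%, so library 1 of each label held the 2 lowest shares. Between 137 and 175 fragments stood behind a value. The gene is on the plus strand of chromosome 11 (120672973 to 120709447) with exons of Gm17178 on the other strand overlapping it. The transcript of the vesicle cargo, Slc2a4, was above Vcp in deposited FPKM in each library, at 488, 447 and 455 FPKM under the WT label and 529, 420 and 427 FPKM under the KO label (log2 difference -0.02, limma adjusted p = 0.995).

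Between the labels, 0 of the 10 genes passed limma's test on log2(FPKM + 1) at a Benjamini-Hochberg adjusted p of 0.05, where 0% of the 11383 tested genes passed. At an unadjusted p under 0.05 there were 0 of 10, against 4.59% of all tested genes, and limma voom on the recovered fragments also gave 0 of 10 at that level. With limma array weights 1 of 10 (Faf2) was under 0.05 unadjusted, among 1413 genes in place of 523, and leaving out WT-labelled library 1 gave 0 of 10 among 1357 genes. Of the 10 genes, 3 (Nploc4, Faf1 and Aspscr1) had the higher mean and 7 the lower mean under the KO label, with a median log2 difference of -0.05. Over all tested genes the median was -0.02 and 56.7% were lower. Subtracting library medians or quantile normalization left 3 higher and 7 lower, while the share of all genes that were higher went from 43.3% to 56.8% and 54.0%. The widest intervals allow a difference of 0.649-fold for Faf2 and 1.23-fold for Aspscr1 on the FPKM + 1 scale. For Vcp, Nsfl1c, Ufd1, Ubxn1, Ubxn4 and Ubxn6 every interval lay between 0.823-fold and 1.10-fold. A missed threshold does not show that the levels are equal.

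**Figure D3:**
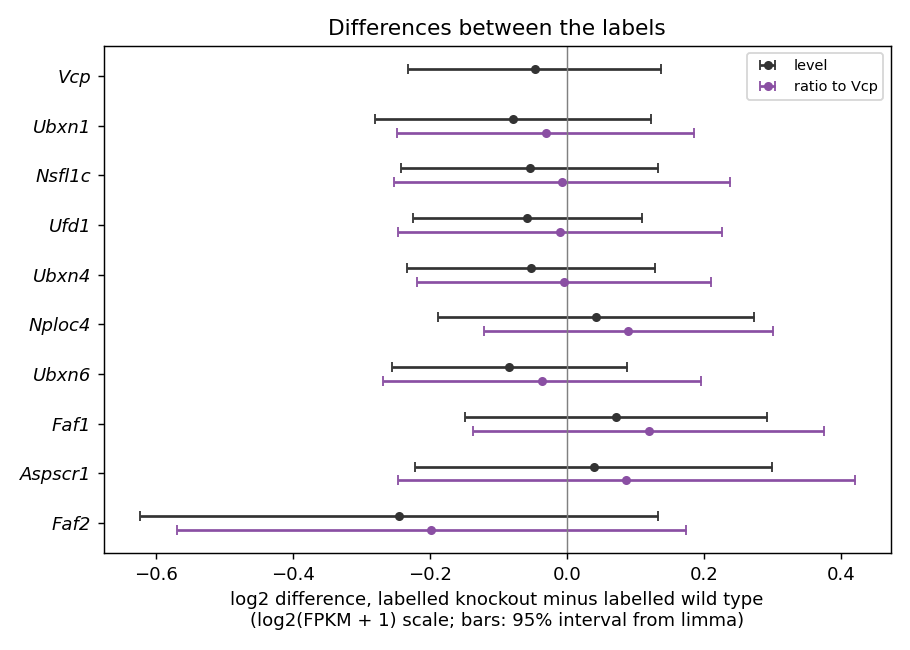
Log2 difference between the labels (KO-labelled minus WT-labelled, log2(FPKM + 1) scale) for the level of each gene and for its ratio to Vcp, with 95% intervals from limma. All 19 intervals include 0, and that of Faf2 is the widest.

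The ratio to Vcp was tested for all 11382 other genes in the same way, and 0% of them passed. Each ratio carries the spread of Vcp itself. Of the 9 cofactors 0 passed, and 0 had an unadjusted p under 0.05, against 2.95% of all genes, with 0 of 9 in limma voom as well. The 336 genes behind that share became 1429 with array weights and 193 to 1021 when 1 library was left out (193 without WT-labelled library 2 and 1021 without KO-labelled library 1), with 0 of 9 cofactors each time. The log2 differences of the ratio ran from -0.20 for Faf2 to 0.12 for Faf1. Leaving out 1 library at a time moved that of Faf2 between -0.30 (without WT-labelled library 1) and -0.04 (without WT-labelled library 3). It moved that of Faf1 between 0.06 (without KO-labelled library 3) and 0.18 (without KO-labelled library 1). They were 0.09 for Nploc4 and Aspscr1, -0.04 for Ubxn6 and -0.03 for Ubxn1. Ufd1, Nsfl1c and Ubxn4 were at -0.01, -0.0072 and -0.0046. All 9 had a limma adjusted p of 0.9999, and their 95% intervals together span 0.674-fold (Faf2) to 1.34-fold (Aspscr1). Without KO-labelled library 1 the sign turned for Ufd1 (0.07), Nsfl1c (0.07), Ubxn4 (0.03) and Ubxn6 (0.03). That library had the lowest ratio for 4 of the 9 cofactors and KO-labelled library 3 the highest for 4. Summed over the 9 cofactors, the FPKM came to 134%, 137% and 139.6% of Vcp under the WT label and 128%, 140.1% and 142% under the KO label, with means of 137 ± 2.94 and 137 ± 7.44 (SD, n = 3 each). Per kilobase of the longest coding transcript the sum was 222 ± 4.74% and 222 ± 11.9% of Vcp.

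**Figure D4:**
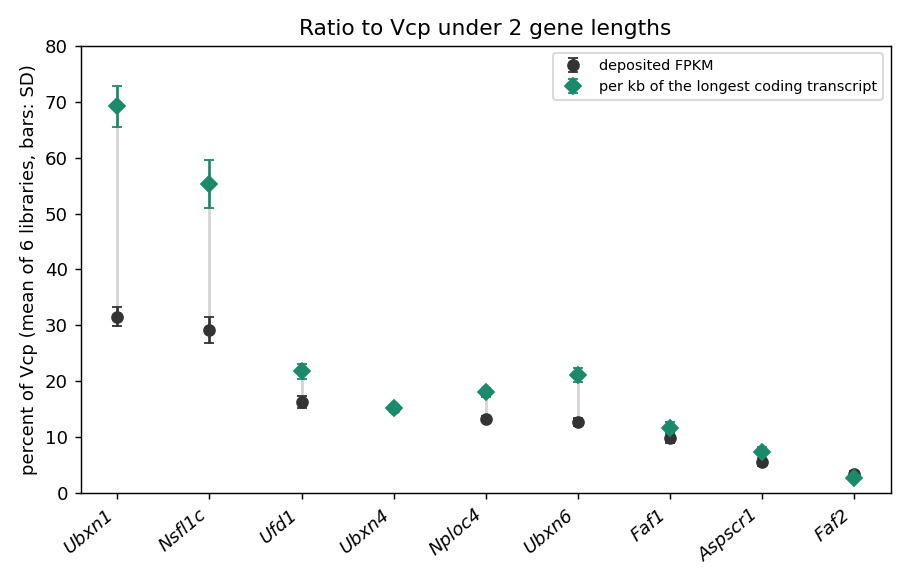
Cofactor level as a percentage of Vcp (mean and SD of 6 libraries) with the deposited FPKM (circles) and after scaling each gene to its longest coding transcript (diamonds). Ubxn1 goes from 31.5% to 69.2% and Nsfl1c from 29.1% to 55.3%, while Ubxn4 stays at 15.2% and 15.1%.

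The spread of the ratios over the 6 libraries is given beside what counting fragments alone would give, as a description only, since separate libraries also differ in other ways. The SD of the log2 ratio to Vcp was 0.05 for Ubxn4, where counting error gives 0.06, and 0.07 for Nploc4, where it also gives 0.06. For Faf2 the SD was 0.26 against 0.13 from counting, for Aspscr1 0.20 against 0.12, for Faf1 0.13 against 0.06 and for Nsfl1c 0.11 against 0.05. Ufd1, Ubxn6 and Ubxn1 lay at 0.09, 0.09 and 0.08 against 0.07, 0.06 and 0.05. Among all other tested genes, 1.16% had a smaller SD of the log2(FPKM + 1) difference to Vcp than Ubxn4, 2.34% than Nploc4, 4.76% than Ubxn1 and 74.3% than Faf2. These shares describe 6 libraries, and low genes spread more through counting error. The 5 genes closest to Vcp by this SD were Atf6, a sensor of misfolded protein in the ER (SD 0.02), Gorasp2, a Golgi stacking protein gene, Zfp622, the mitochondrial Dlst and the co-chaperone gene Sgta, all with an SD of 0.02 where the median gene had 0.17. They were picked as the smallest SDs of 11382 genes, so their closeness to Vcp is no result of a test. Shared regulation with Vcp was not tested. Atf6 was at 2.37% to 2.43% and Gorasp2 at 13.3% to 13.9% of Vcp in the 6 libraries.

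**Figure D5:**
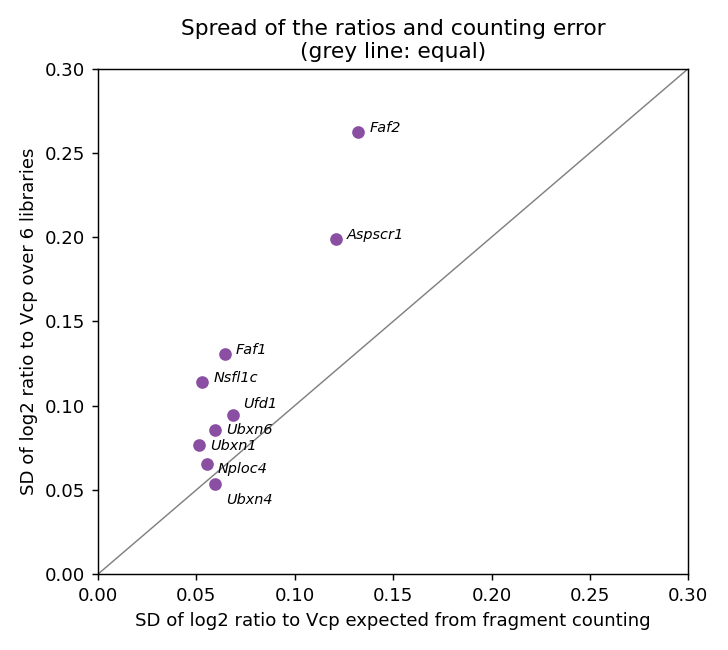
SD of the log2 ratio to Vcp over 6 libraries (vertical) against the SD expected from the recovered fragment counts alone (horizontal), 1 point per cofactor, with a grey line where both are equal. Ubxn4 lies just below the line and Faf2 and Aspscr1 lie farthest above it.

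The wider VCP system showed no gene past limma's test either, in 77 tested genes from 6 lists. Among the other UBX proteins 4 of 6 were tested, 2 higher and 2 lower under the KO label. Ubxn2a, a close relative of Nsfl1c, was at 73.5 ± 3.55 FPKM under the WT label and 78.9 ± 1.27 FPKM under the KO label (SD, n = 3 each), and Ubxn7, a link to cullin ubiquitin ligases, at 2.48 ± 0.211 and 2.41 ± 0.220 FPKM. Other VCP-binding cofactors (19 of 20 tested, 9 higher and 10 lower) included Derl1, an ER channel component, at 25.9 ± 0.0545 and 23.96 ± 0.704 FPKM. Of 22 genes of ER-associated degradation, 7 were higher and 15 lower, with a median log2 difference of -0.05. The most abundant were Bag6, a chaperone of membrane proteins, at 126 ± 16.9 and 124 ± 11.1 FPKM, and Selenok, an ER selenoprotein, at 121 ± 14.9 and 121 ± 7.50 FPKM.

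Ubiquitin shuttles and receptors divided evenly, with 5 of 10 higher and 5 lower. The autophagy receptor gene Sqstm1 was above Vcp in deposited FPKM, at 425 ± 21.9 FPKM under the WT label and 393 ± 41.4 FPKM under the KO label. Among 12 related AAA ATPases 5 were higher and 7 lower. The most abundant of them, Vps4a, which disassembles membrane-remodelling filaments, was at 51.0 ± 1.16 and 50.6 ± 3.71 FPKM, and Atad1, which extracts mislocalised proteins from mitochondria, at 40.6 ± 3.66 and 40.9 ± 4.57 FPKM. By deposited FPKM Vcp thus stood above each of the 12 relatives in mean. These relatives, Sqstm1 and Slc2a4 were not rescaled to their longest coding transcripts, so their order against Vcp holds for the deposited lengths only. Of the 10 genes around TUG and GLUT4 vesicles 3 were higher and 7 lower. Beside Slc2a4 the most abundant was Tbc1d1, a brake on GLUT4 transport, at 52.0, 55.9 and 45.3 FPKM under the WT label and 78.2, 44.6 and 48.0 FPKM under the KO label. Its highest value, like those of Vcp, Nploc4 and Slc2a4, was in KO-labelled library 1. In none of the 6 lists did a gene reach an unadjusted p under 0.05, against 4.59% of all tested genes.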

How the data were processed

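The authors deposited 6 gene tables, 1 for each RNA-seq library, in FPKM. TopHat2 2.1.1, Cufflinks 2.2.1 and the build mm10 stand in the submitters' processing notes, and their roles, the annotation release, strand setting and filters are not given there. Sample titles gave the groups and replicate numbers. Symbols, positions and transcript lengths came from GENCODE for the same build. All 10 genes were in the RefSeq promoter table.

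Whole fragments were recovered for 23559 of 23559 genes above 0 (100%), with 1 length of 20 to 110000 bases per gene and a tolerance of 0.002 fragments. The shortest length that met the tolerance was kept. A gene above 0 in few libraries can meet it at a length that is not its own. The share of 100% is therefore no check of the recovery for such genes. A single fragment per kilobase is worth 0.0921 to 0.118 FPKM. limma 3.58.1 (R 4.3.3) was fitted to log2(FPKM + 1) of all 6 libraries, with a mean-variance trend and a filter at a mean FPKM of 1. Ratios subtracted the value of Vcp. The test was checked on simulated libraries. Each pair of libraries differed beyond sampling noise (chi-square over genes with 20 or more fragments in the pair). Named genes are the 10 members, Mettl21e, the 2 most abundant genes of each list where none passed, and the 5 closest to Vcp; some of these are not reported here. The members and lists were chosen with earlier results of these data known. Alternatives were median centring, quantile normalization, pseudocounts of 0.1 and 0.01, no filter, a mean of 5 FPKM, the replicate block, no trend, array weights, voom and leaving out each library. Python 3.11.15, pandas 2.3.3, numpy 2.4.6, scipy 1.17.1 and matplotlib 3.10.9 were used.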

Additional observations from a re-analysis of the deposited data

How the results depend on the processing

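Over 16 alternatives the 19 differences of levels and ratios gave 304 values. Of these, 289 kept their direction and 15 turned sign, 0 passed the test, and the smallest adjusted p was 0.354 (Faf2 level, limma array weights). Some of the 289 could not turn. No filter, a mean of 5 FPKM, the replicate block and no trend leave each log2 difference as it was and change only the p-values. Median centring leaves each ratio as it was. Array weights turned the Aspscr1 level to -0.0060 and the ratios of Nsfl1c and Ufd1 to 0.045 and 0.045. Leaving out 1 library at a time gave log2 level differences of -0.059 to 0.096 for Aspscr1 and -0.050 to 0.096 for Nploc4. It gave ratio differences of -0.077 to 0.068 for Nsfl1c, -0.062 to 0.073 for Ufd1, -0.075 to 0.023 for Ubxn1, -0.035 to 0.029 for Ubxn4, -0.089 to 0.030 for Ubxn6 and -0.028 to 0.21 for Aspscr1. The log2 difference of Ufd1 to Nploc4 ranged from -0.16 to 0.0099. No member was called in any of these fits, while 0 to 3 genes in all were called by level and 0 to 3 by ratio to Vcp. In either test this was 1 gene when WT-labelled library 1 or KO-labelled library 3 was left out and 3 genes when WT-labelled library 3 was. The cause was not tested. The fit with the replicate number as a block called 0 genes by level and 0 by ratio. Deviations of same-numbered libraries correlated at 0.02, -0.04 and 0.02, and those of other pairs across the labels at -0.05 to 0.03. Same-numbered libraries thus shared no large deviation, but this cannot show whether the numbers stand for a pairing. The Ufd1 to Nploc4 ratio comes from no fit, so no block was used for it. Gene length moved the ratio to Vcp by over 1.5 times for Ubxn1 (69.2% against 31.5%), Nsfl1c (55.3% against 29.1%) and Ubxn6 (21.1% against 12.7%). Depth limits Faf2 and Aspscr1 most, at 97 to 175 fragments a library.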
